A study of Homo sapiens with 2 samples.

Results

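The MYC and MAX network is a set of transcription factors that pair through a shared helix-loop-helix and leucine zipper fold. MYC and its relative MYCL drive growth genes when paired with MAX. The MXD proteins, MXI1 and MNT compete for MAX and repress, MGA binds MAX within a repressive complex, and MLX is the MAX-like partner of a parallel, nutrient-sensing branch. MYC is a frequent oncogene in liver cancer, its mRNA is short-lived, and IGF2BP proteins, which read the RNA modification m6A (N6-methyladenosine, adenosine with an added methyl group), are known to bind and stabilise it. The 10 genes were taken by name as genes of the network among the 25105 genes with a listed input level. They are MYC, MYCL, MAX, MXD1, MXD3, MXD4, MXI1, MNT, MGA and MLX. The rule set no further limit on any measured value. These genes held 41 of the 49746 listed m6A peaks.

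The RNA came from untreated wild-type Huh-7 cells, a hepatocellular carcinoma line of human origin. After removal of ribosomal RNA and fragmentation, an m6A antibody enriched the fragments of 1 library (the IP), and 1 library came from the fragments before enrichment (the input). The question was where IP reads exceeded input reads. The IP over input fold of each peak and its raw and adjusted p-values are the authors' own, and they serve to describe and rank peaks of the same list. With 1 library of each kind there is no replicate check, and the read depth of both libraries is unknown. A standard error (SE) beside a log2 fold is the one implied by the authors' p-value if that came from a two-sided normal test of the log2 fold against 0, so it covers at most the error their test modelled. The liver markers ALB, AFP, APOA1, TTR, SERPINA1, HNF4A, FOXA2 and APOB stood at 17.6 to 2380 FPKM. Of 12 markers of leukocytes, endothelium, fibroblasts and adipocytes, 3 reached 1 FPKM, none above 1.46 FPKM.

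Every network gene carried m6A peaks, as did 96.2% of protein-coding genes at 1 FPKM or more. The strongest peaks of MYC, MGA and MXI1 lay above the upper quartile of genes of their level. A peak of 4-fold or more was listed for 7 of the 10 genes, a share of 70.0%, against 40.7% of the 10548 protein-coding genes at 1 FPKM or more. MYCL, under that level, was one of the 7, so 6 of the 9 members at 1 FPKM or more had such a peak. All 10 had at least 1 peak, against 58.2% of all listed genes and 96.2% of those coding genes. All 10 also had a peak of at least 2-fold, against 80.4%, and one of that size whose adjusted p was under 0.001, against 67.5%. With the same p limit, 6 members had a 4-fold peak, MYCL again among them, against 38.1% of the coding genes at 1 FPKM or more. Of the 41 member peaks, 29 were at least 2-fold (70.7%, against 56.4% of all peaks), 10 were at least 4-fold (24.4%, against 19.7%) and 27 had an adjusted p under 0.001 (65.9%, against 44.1%). A peak on the other strand overlapped 3 of them (7.32%, against 12.0%). The median over the members of each gene's strongest peak was a log2 fold of 2.35, and 2.27 over the 9 members at 1 FPKM or more. Over coding genes at 1 FPKM or more with a peak it was 1.76. The input level ranged over the members from 0.217 FPKM for MYCL to 19.6 FPKM for MXD4, with a median of 3.56 FPKM. Strongest peaks were weaker towards high input levels (a median log2 fold of 2.21 in the lowest decile of coding genes and 1.09 in the highest), so each member was also set beside the coding genes in its own decile of input level. Of the 9 members at 1 FPKM or more, 6 had a strongest peak above the median of their decile, and MXD1, MXD4 and MNT lay below it.

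**Figure D1:**
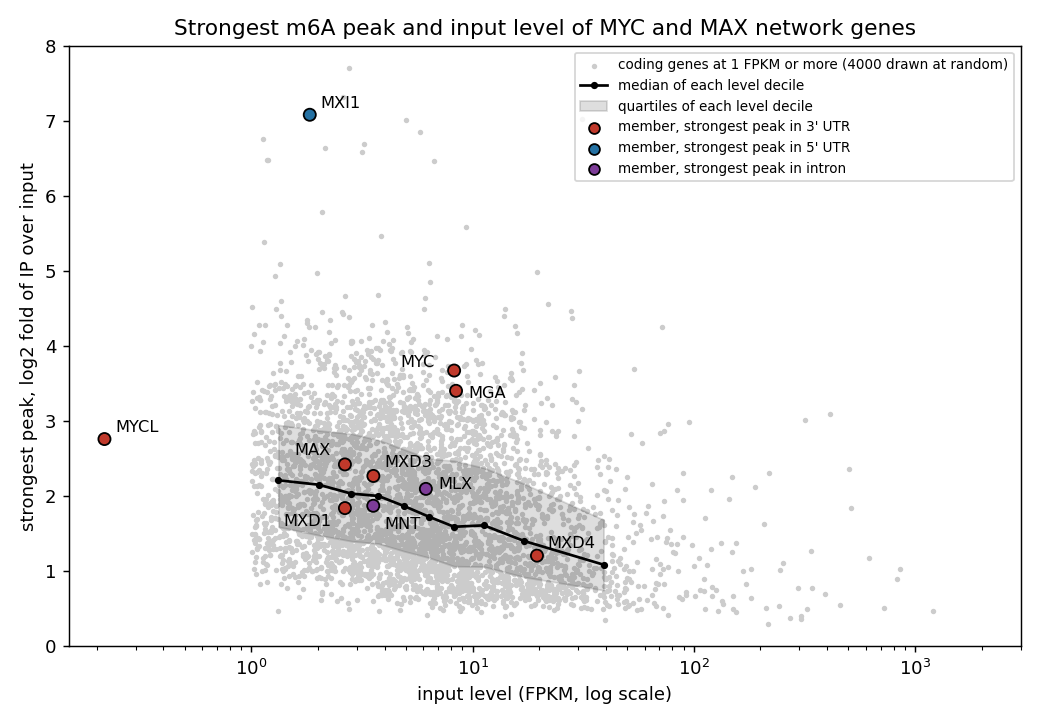
Input level (FPKM, log scale) against the log2 fold of the strongest peak, for the 10 network genes (large points, coloured by region of that peak) and for coding genes at 1 FPKM or more (grey), with the median and quartiles of each level decile. MYC (3.67), MGA (3.40) and MXI1 (7.08) lie above the upper quartile of their deciles, and MXD4, MXD1 and MNT lie just under the median line.

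MYC, the activator that gives the network its name, had 1 very strong and 1 weak peak. The strong one lay in the 3' UTR, from 127740567 to 127741492 on chromosome 8 (926 bases, plus strand), with a log2 fold of 3.67 (SE 0.12), that is 12.8-fold, and an adjusted p of 1.04e-208. This value exceeded the strongest peak of 96.6% of the 1036 coding genes with a peak in MYC's level decile (7.21 to 9.53 FPKM), whose median was 1.59. MYC itself stood at 8.25 FPKM. The other peak was assigned to the 5' UTR and spanned 2934 bases, from 127736083 to 127739016, at a log2 fold of 0.96 (SE 0.10). The 3' UTR peak exceeded this wide peak, assigned to the 5' UTR, by 2.71 on the log2 scale (implied 95% interval 2.41 to 3.01). No peak on the other strand overlapped either of them.

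MYCL, the L-MYC activator first known from lung cancer, was the lowest member by level, at 0.217 FPKM, at the 22.4th percentile of all listed genes. It had 2 adjoining peaks of 751 bases each in the 3' UTR. They ran from 39895800 to 39896550 and from 39896625 to 39897375 on chromosome 1 (minus strand), with log2 folds of 2.76 (SE 0.55) and 2.23 (SE 0.50). Both had an adjusted p under 0.001, and both SEs were several times that of the MYC 3' UTR peak. MYCN, the third MYC family gene and no member of the set, was the most abundant of the family at 30.7 FPKM. Its strongest peak, 1301 bases in the 3' UTR, reached a log2 fold of 3.82, above 99.0% of the 978 coding genes with a peak in the highest level decile. The strongest peak of all 3 MYC family genes was thus in the 3' UTR, as in 63.3% of coding genes at 1 FPKM or more with a peak.

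MAX, the common DNA-binding partner of the MYC and MXD proteins, had 5 peaks at 2.65 FPKM. The strongest, at a log2 fold of 2.42 (SE 0.22), ran from 65061056 to 65069956 on chromosome 14 (minus strand) and was assigned to the 3' UTR of a transcript marked for nonsense-mediated decay. It exceeded the strongest peak of 61.0% of coding genes in its decile, close to the middle. A peak of CHURC1-FNTB on the other strand, with a log2 fold of 2.22, overlapped it over 1549 bases, so the part of its signal that comes from each strand was not tested. Peaks at 1.09 (SE 0.15) and 0.95 (SE 0.28) followed in the 3' UTR of another transcript, and peaks at 1.30 (SE 0.37) and 0.85 (SE 0.43) in 5' UTRs. The weakest, from 65093515 to 65093790, had an adjusted p of 0.0595 and was listed on its unadjusted p. The same held for the weakest peaks of MXD1 (adjusted p 0.059) and MGA (adjusted p 0.0575).

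The 5' UTR peak of MAX at 1.30, from 65101545 to 65102563, covered RefSeq transcription starts. The sequence around them holds GGAC, the core of the motif that the m6A methyltransferase prefers. Further GGAC stretches under this peak lie upstream of another start, GGACt among them, and are not shown. The stretches given are shown because they lie under a member's peak, with GGAC in capitals. They come from RefSeq (GRCh38.p14) and run 5' to 3' on the minus strand. The first holds GGAC at base 25 counted from one RefSeq start, and the second, where t follows GGAC, lies at position -150 from the same start, still inside the listed gene.
MAX, chr14:65102243-65102272: ggttgtcaggcggGGACagcggccggggct
MAX, chr14:65102417-65102446: gtgtgtgtgggggGGACtcggcttgttgtt
A peak is far wider than a single adenosine, so these letters do not place the mark.

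The MXD repressors differed widely in level and in peak pattern. MXD1, which takes over MAX when cells leave the cycle, stood at 2.65 FPKM with 4 peaks, all in the 3' UTR. Their log2 folds were 1.84 (SE 0.23), 1.54 (SE 0.57), 1.23 (SE 0.25) and 0.98 (SE 0.49), in order of strength. The strongest ran from 69937257 to 69938709 on chromosome 2, and the weakest ended on the last base of the listed gene. MXD3, the MXD member linked to proliferating cells, stood at 3.56 FPKM and had a single peak, from 177307034 to 177308034 on chromosome 5, in the 3' UTR at 2.27 (SE 0.13, adjusted p 1.16e-65). In its decile, 3.23% of coding genes had fewer peaks, that is, none. The strongest peaks of MXD1 and MXD3 exceeded those of 41.9% and 59.9% of genes in their deciles.

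MXD4 was the most abundant member, at 19.6 FPKM, and the one with the weakest strongest peak. Its 6 peaks lay between log2 folds of 0.59 and 1.21, and 2 of them reached 2-fold. The strongest, from 2254649 to 2255174 on chromosome 4 (minus strand), was at 1.21 (SE 0.17) and was assigned to a transcript marked for nonsense-mediated decay. The peak with the smallest p, from 2249631 to 2250231 in the 3' UTR, was at 1.13 (SE 0.08, adjusted p 5.33e-40). That peak contained the whole hairpin of the microRNA gene MIR4800, which was listed at only 0.0697 FPKM on the same strand. The hairpin holds GGAC, and the stretch around it is shown because it lies inside a peak in this member's 3' UTR (RefSeq, GRCh38.p14, minus strand, GGAC in capitals).
MXD4, chr4:2250127-2250156: ggagaaaggaguGGACcgaggaaggaagga
At its level, the median strongest peak of genes was 1.40, so MXD4 lay close to the middle of its decile (above 40.4% of genes).

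MXI1, a repressor and MAX partner, held the highest fold of the set and the least certain one. The gene stood at 1.84 FPKM and had 2 peaks, both assigned to 5' UTRs. The peak from 110227322 to 110227632 on chromosome 10 (311 bases) had a log2 fold of 7.08, which is 136-fold, above 99.6% of the genes in its decile. Its implied SE was 1.96, with an implied 95% interval of 3.23 to 10.9, and its adjusted p of 0.000906 was just under the limit of 0.001. It began 1326 bases after the nearest RefSeq start of the gene. The other peak ran from 110207779 to 110226029, across 18251 bases that include introns, at 1.73 (SE 0.57, adjusted p 0.00514). Its listed span took in 2 of the 3 RefSeq start windows of MXI1 at least in part. Within that span lie 2 GGAC stretches upstream of the later start, shown for that reason on the plus strand. Whether they belong to RNA that the peak's reads cover was not tested.
MXI1, chr10:110225795-110225824: aggaaacccagcgGGACtacaccttccgac
MXI1, chr10:110225892-110225921: gcgggcgggtgcgGGACtacatttcccagg
No peak of MXI1 was listed in its 3' UTR, whereas each of the other 9 members had at least 1 there.

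MNT, a MAX-bound repressor made in most cell types, stood at 3.56 FPKM with 6 peaks, each of 2-fold or more. Their log2 folds lay between 1.11 and 1.87, in the 3' UTR, a coding exon, introns and the 5' UTR. The strongest, at 1.87 (SE 0.49), and the next, at 1.57 (SE 0.48), were adjoining intronic peaks between 2389921 and 2391171 on chromosome 17 (minus strand). The best supported was a 3' UTR peak from 2386047 to 2387072 at 1.40 (SE 0.17, adjusted p 2.86e-16). A peak of AC006435 on the other strand overlapped it over 441 bases, at a log2 fold of 1.14, and AC006435 was listed at 0.0917 FPKM. A 5' UTR peak at 1.44 (SE 0.48) and an exonic one at 1.18 (SE 0.25) completed the gene, with the peak at 1.11 (SE 0.44) near its end.

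MGA, a very large MAX-binding protein of a repressive Polycomb-type complex, had the most peaks, 10 at 8.42 FPKM, more than 96.2% of coding genes at 1 FPKM or more. The strongest, in the 3' UTR from 41762241 to 41768105 on chromosome 15 (5865 bases, plus strand), had a log2 fold of 3.40 (10.6-fold) and a p listed as 0, so no SE is implied for it. That exceeded 93.8% of the genes of its level. A 5' UTR peak of 15711 bases followed at 2.33 (SE 0.11), then coding exon peaks at 2.11 (SE 0.09), 1.58 (SE 0.14), 1.01 (SE 0.13) and 0.94 (SE 0.15). The others were 3' UTR peaks at 1.41 (SE 0.13), 1.28 (SE 0.57) and 0.35 (SE 0.17) and an intronic one at 0.62 (SE 0.29). The 3' UTR peak at 1.28 overlapped a peak of AC073657 on the other strand, which was stronger, at 3.47. The 3' UTR peak at 1.41, from 41684644 to 41698867, was assigned to another transcript than the strongest and lay at 46.4% of the span.

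MLX, the MAX-like partner of the glucose-sensing factors MLXIP (MondoA) and MLXIPL (ChREBP), stood at 6.15 FPKM with 3 peaks. The strongest was an intronic peak from 42567707 to 42568057 on chromosome 17, at 2.10 (SE 0.70, adjusted p 0.00583). A coding exon peak was at 1.19 (SE 0.32) and the 3' UTR peak, the best supported of the 3, at 0.62 (SE 0.14, adjusted p 1.94e-05). MLX was thus the only member whose strongest peak did not have an adjusted p under 0.001. Its partner MLXIP, at 4.54 FPKM, had 8 peaks with a strongest of 2.48 in the 3' UTR, and MLXIPL, at 7.59 FPKM, had 10, none above 1.30.

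**Figure D2:**
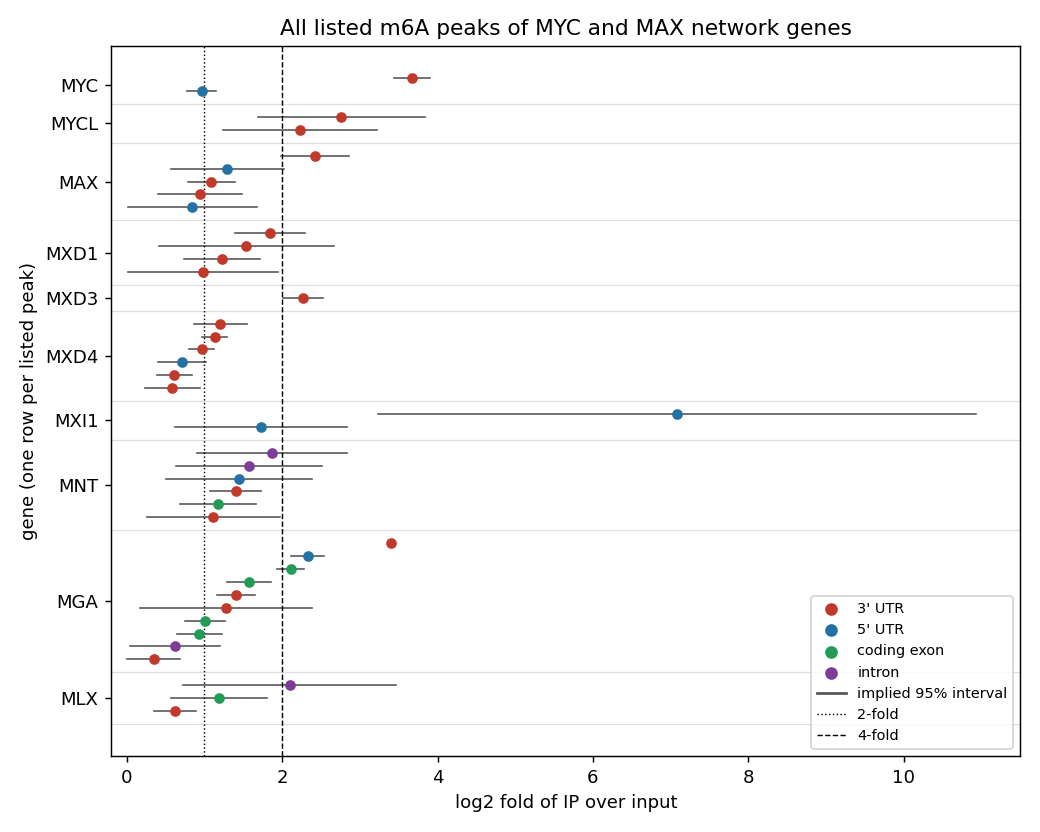
Log2 fold of IP over input of each of the 41 listed peaks of the 10 genes, coloured by region, with the 95% interval implied by the authors' p (no interval for the MGA peak whose p is listed as 0). The MYC 3' UTR peak at 3.67 has a narrow interval, and the MXI1 peak at 7.08 the widest, from 3.23 to 10.9.

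Most member peaks lay in 3' UTRs, as did most of the strongest. By the authors' region, 23 of 41 peaks (56.1%, exact binomial 95% interval 39.7 to 71.5%) were in 3' UTRs, against 49.2% of all peaks. 5' UTRs held 8 (19.5%, 8.82 to 34.9%), against 12.3%. Coding exons held 6 and introns 4. The interval covers counting error only, and peaks of 1 gene share their source, so no difference between the members and all peaks is shown. The strongest peak was in a 3' UTR in 7 of 10 members, against 63.3% of coding genes at 1 FPKM or more with a peak. The exceptions were MXI1 (5' UTR) and MNT and MLX (intron). By position, however, 9 of 41 midpoints (22.0%) fell in the last 10% of the listed gene span, against 33.5% of all peaks. The strongest 3' UTR peaks of MAX (38.5%), MXD3 (46.2%) and MXD4 (49.0%) were centred before the middle of the listed span, which covers all transcripts of a gene. In all, 4 of the 41 peaks were assigned to transcripts marked for nonsense-mediated decay, in MAX, MXD1 and MXD4.

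Of 5 members with peaks in both UTRs, 4 had the stronger one in the 3' UTR, against 59.9% of 4017 such coding genes. The difference on the log2 scale, 3' UTR minus 5' UTR, was 2.71 for MYC, 1.13 for MAX (implied 95% interval 0.28 to 1.97) and 0.49 for MXD4 (0.04 to 0.95). For MGA it was 1.07, with no interval because of the p of 0. For MNT it was -0.04, with an interval of -1.04 to 0.95 that includes both directions. Each difference took the strongest peak of each UTR, a choice that the intervals do not cover. The UTR is the authors' label of a listed span. The 5' UTR peaks compared spanned 301 bases in MNT, 1019 in MAX, 2934 in MYC, 3160 in MXD4 and 15711 in MGA. Which other regions the long spans cross was not tested. Apart from the strongest, the 3' UTR peaks of MAX, MGA and MNT lay below the strongest 5' UTR peak of their gene. Those of MXD4 (0.59 to 1.13) lay on both sides of its 5' UTR peak (0.71).

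**Figure D3:**
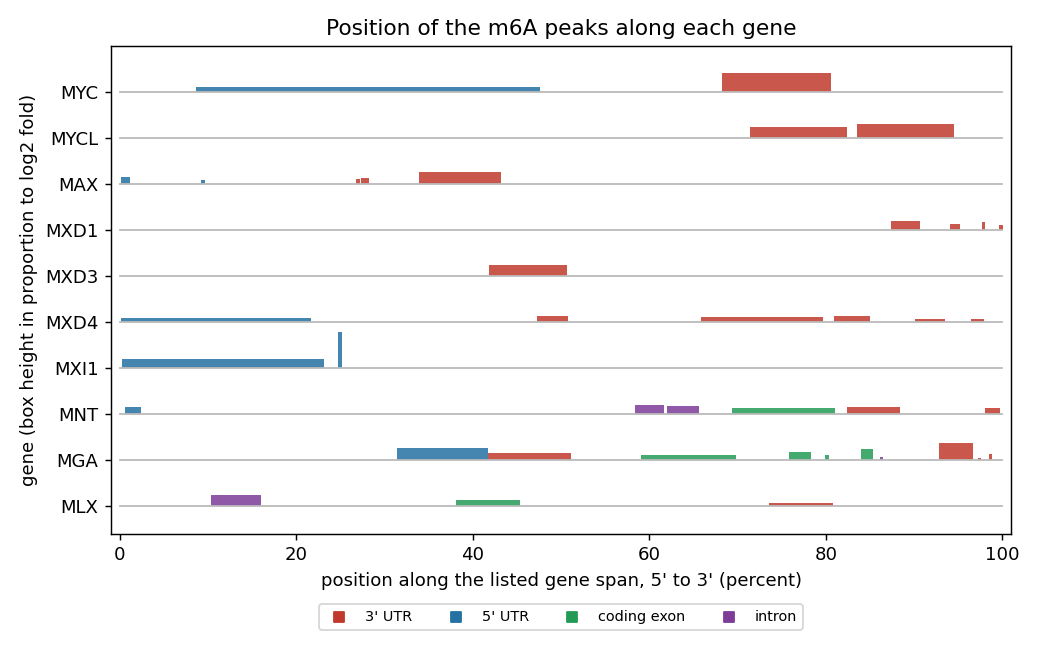
Position of every listed peak along the listed span of its gene, from 5' (0%) to 3' (100%), with box height in proportion to the log2 fold and colour for the region. The strong MYC peak is centred at 74.4% of the span, and MYCL and MXD1 have peaks only towards the 3' end.

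The start windows of the genes were searched for the motif of the mark and for that of the proteins the genes encode. RefSeq windows, 250 bases before to 50 after a start, were at hand for 9 members, 14 windows in all. MYC had no window, so its start was not searched. GGACT, a preferred m6A sequence, was found on the sense strand in 7 of the 14, against 25.3% of all 35116 windows, and on either strand in 9, against 44.2%. GGAC, which every GGACT contains, was found on the sense strand in 9 of 14, against 66.3%. Most of each window lies before the start, outside the RNA made from it. In the 50 bases after the start, GGACT was found on the sense strand in 1 of the 14 windows (MNT), against 4.90% of all, and GGAC in 3 (MAX, MGA and MNT), against 18.9%. CACGTG, the E-box that MYC and MAX bind and which reads the same on both strands, was found in 3 windows, those of MXD4, MNT and MLX, against 7.26% of all. Base composition was not matched, several windows belong to 1 gene, and a match is not a site.

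Genes around the network were described from lists chosen with earlier results of these data known. Of 17 genes in the extended network (partners, corepressors and coactivators), all at 1 FPKM or more, all had a peak and 11 had one of 4-fold or more, a share of 64.7% beside 40.7% of coding genes. L3MBTL2 (3.85), a partner of MGA, and MYCN (3.82) were highest, and HDAC1 (0.91) and WDR5 (1.19) lowest. Of 14 genes at 1 FPKM or more that control MYC protein turnover, 3 had a 4-fold peak (21.4%, against the same 40.7%). FBXW7 (4.02), which marks phosphorylated MYC for destruction, and the ubiquitin ligase HUWE1 (3.94, adjusted p 0.00927) were highest, whereas SKP2 (0.54) and CIP2A (1.11) were lowest. FBXO32 has no listed level. Of 12 regulators of MYC mRNA, 3 had a 4-fold peak (25%, against the same 40.7%). IGF2BP3 (2.77), a reader of m6A, and YTHDF2 (2.38), a reader that speeds decay, were highest, and ALKBH5 (0.82) and HNRNPD (0.96) lowest.

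Target genes of the network had a median strongest peak below that of the network itself. Of 35 MYC targets at 1 FPKM or more, 34 had a peak and 14 a 4-fold one (40.0%, against 40.7% of coding genes). The median log2 fold of their strongest peaks was 1.46, at a median level of 19.6 FPKM. E2F2 (3.85), a cell cycle factor, and NOP56 (3.36), of ribosome assembly, were highest. NPM1 (0.54) and APEX1 (0.55) were lowest, and RRS1, at 9.27 FPKM, had no peak. Of 6 targets of MLX and ChREBP at 1 FPKM or more, 2 had a 4-fold peak (33.3%, against the same 40.7%). ACACB (2.78), which makes malonyl-CoA at mitochondria, and TKFC (2.25) were highest, and TXNIP (0.62, adjusted p 0.0619) and FASN (0.64) lowest. MYC targets stood at higher input levels than the network, where strongest peaks were weaker in all coding genes too, and levels were not matched between the lists.

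**Figure D4:**
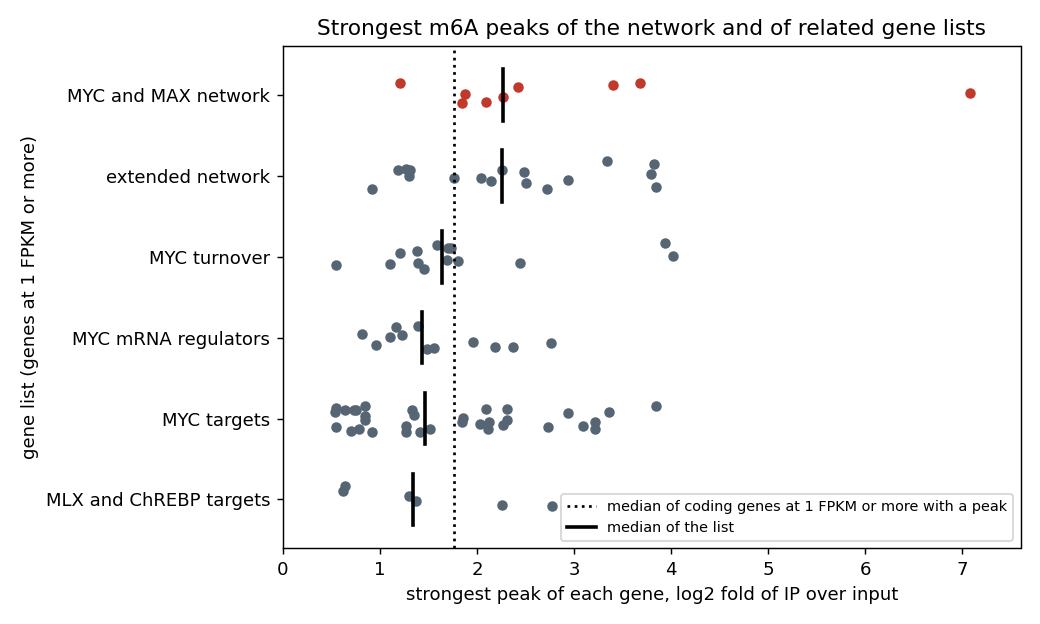
Log2 fold of the strongest peak of each gene at 1 FPKM or more, for the network and 5 related lists, with the median of each list (bar) and of all coding genes at that level with a peak (dotted line, 1.76). The medians of the network and the extended network lie to the right of the dotted line, those of the other 4 lists to its left.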

How the data were processed

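Huh-7 RNA was sequenced as 1 IP and 1 input library. Tools named, without roles, by the submitters' processing notes are HISAT2, StringTie, HOMER, edgeR, fastp and FastQC. Not given in the sources used here are the tool that called peaks, its settings, the build and the scaling of IP against input. Per the file headers, the deposited peak table holds the authors' log2 fold (IP over input) with its p-value, raw and adjusted, for each peak. The largest p is 0.0500 and the largest adjusted p 0.0635. The deposited gene table gives, per the file headers, the input level in FPKM, from which no depth can be recovered. Of 19112 genes matched by symbol, 67.1% shared a start or end to the base with RefSeq on GRCh38.p14, so its sequences were placed on the files' coordinates.

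Members were joined to peaks by gene name and other genes by Ensembl ID. Coding status came from RefSeq symbols or synonyms. Deciles were cut over coding genes at 1 FPKM or more. All work used Python 3.11.15, pandas 2.3.3 and scipy 1.17.1, and the overlap, position and SE steps were tested on simulated data. No test across libraries was possible. The members were listed by name, and they and the lists were drawn up with earlier results of these data known. All members are named, and, of each related list at 1 FPKM or more, the 2 genes with the highest and the 2 with the lowest strongest peak and those without a peak. A further gene of the MYC turnover list is not reported here and enters no count. MYCN, MLXIP and MLXIPL were described singly after their values were seen. Alternatives are given in the closing section.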

Additional observations from a re-analysis of the deposited data

How the results depend on the processing

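Of 25 recomputed values, 21 moved little, by less than 1.5 times for counts and levels, inside the 95% interval for the 3' UTR share, and by less than the median implied SE (0.23) for the median peak. Some of the 21 could hardly move, such as the median input level after a log2 transform with a pseudocount and back (3.56). The limit for counts is wide: 29 peaks of 2-fold or more in place of 41 fall within it. With peaks of adjusted p under 0.001 alone, the number of member peaks was 27 in place of 41. The share of member peaks in 3' UTRs, 56.1% by the authors' region, was 22.0% when counted instead as midpoints in the last 10% of the gene span. The median strongest peak, 2.35, was 1.40 with each gene's median peak in its place and 2.75 over the 4 members at 5 FPKM or more. Without the MXI1 peak of the highest fold, an alternative added after seeing the data, it was 2.18, and 6 members had a 4-fold peak in place of 7. The region under each midpoint by exon was not run, since no exon annotation was used here. No paired analysis was possible because each group holds 1 library. The read depth is unknown, and the widest implied SEs were those of the strongest peaks of MXI1 (1.96) and MLX (0.70).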
